A study of Homo sapiens with 24 samples.

Results

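The genes described here are 35 hepatic and visceral endoderm secretory genes, taken by symbol from a list of apolipoproteins, plasma proteins and absorptive endoderm genes, among 62757 gene rows of a bulk RNA-seq count table. All 35 had a row, and 32 passed the filter on low counts among 17724 genes tested. APOC2, GC and SLC2A2 did not pass. The cells were hESC-derived cardiac cells of the human embryonic stem cell line HES3_NKX2-5GFP_NR2F2mCherry, which carries fluorescent reporters at the genes NKX2-5 and NR2F2 in every library, grown as embryoid bodies under Wnt-modulating protocols for at most 14 days. The 24 libraries fell into 8 groups of 3 replicates, from 4 genotypes (LHX2-KO, ZNF503-KO, ZNF711-KO and the control TRAC-KO, all made with CRISPR-Cas9) in 2 conditions, AM and VM. AM was read as the atrial culture, which received retinoic acid at day 4, and VM as the ventricular culture without it. The labels do not state how many clones or cultures lie behind the replicates, so p-values measure only the spread between these samples, which may be technical. Every group, controls included, had been through Cas9 targeting, and no untargeted cells were analysed here.

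Visceral endoderm is the extraembryonic epithelium that surrounds the early embryo, and the fetal liver later makes many of the same products. Both secrete lipoproteins, albumin-family carriers, fibrinogen and protease inhibitors into the surrounding fluid or blood, under transcription factors such as HNF4A, FOXA1, FOXA2 and GATA6. Visceral endoderm also takes up lipids and proteins through the receptor pair cubilin and amnionless. Endodermal cells are a known companion of cardiac mesoderm in embryoid body cultures. In bulk RNA, fewer cells of a type and less RNA per cell cannot be told apart, and that holds for every level below.

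Total counts ran from 2899786 to 7438010 per library, with a median of 5113566. Levels are in CPM, the count relative to library size, scaled by TMM, edgeR's trimmed mean of log ratios, and 3 counts correspond to 0.447 to 0.963 CPM. The cells carried cardiac transcripts in every library: 12 cardiomyocyte genes (among them TNNT2, MYH6, MYL7 and TTN) summed to 15300 to 30200 CPM in AM and 11800 to 42400 CPM in VM. Among the targeted genes, ZNF503 RNA was higher in the libraries labelled ZNF503 than in those labelled TRAC (255 to 367 against 103 to 123 CPM in AM, 19.1 to 45.3 against 8.82 to 16.2 CPM in VM). ZNF711 RNA was lower without overlap in VM (25.9 to 33.9 against 34.6 to 48 CPM) and overlapped in AM (31.2 to 55.8 against 47.4 to 60.3 CPM). LHX2 RNA was close to the floor, at 0.517 to 2.09 CPM in the AM libraries labelled LHX2 and 0.425 to 2.8 CPM in the VM ones. Gene counts do not show small edits, so these levels do not settle whether a target was cut, and groups are named by their labels.

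Promoters of 5 of the genes are shown because their levels set the main patterns: AFP and ALB as the paired albumin-family genes, AHSG and APOA4 as genes with wide gaps between AM and VM, and FGB as a gene whose gap did not pass the test. Each run is the 250 bases before the annotated start, 5′ to 3′ on the gene's strand, from the RefSeq promoter table of GRCh38.p14. Capitals mark matches, on either strand, to 5 short motifs: GTTAAT, AAAGTCCA (HNF4), TGTTTAC (FOXA), AGATAA (the site of GATA factors) and TATAAA (the core box of many promoters). AFP lies at chr4:73435971-73436220 (plus strand), ALB at chr4:73404037-73404286 (plus), AHSG at chr3:186612810-186613059 (plus), APOA4 at chr11:116823305-116823554 (minus) and FGB at chr4:154562730-154562979 (plus).
AFP: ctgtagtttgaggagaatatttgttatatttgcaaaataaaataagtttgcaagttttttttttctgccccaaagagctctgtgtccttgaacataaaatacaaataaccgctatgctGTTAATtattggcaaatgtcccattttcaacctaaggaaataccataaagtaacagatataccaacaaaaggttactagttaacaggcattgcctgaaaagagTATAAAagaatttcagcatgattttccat
ALB: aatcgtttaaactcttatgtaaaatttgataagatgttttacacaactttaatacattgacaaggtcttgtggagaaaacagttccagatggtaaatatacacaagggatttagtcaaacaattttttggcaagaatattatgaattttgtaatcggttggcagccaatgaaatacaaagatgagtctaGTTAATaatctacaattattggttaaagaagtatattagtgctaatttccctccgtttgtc
AHSG: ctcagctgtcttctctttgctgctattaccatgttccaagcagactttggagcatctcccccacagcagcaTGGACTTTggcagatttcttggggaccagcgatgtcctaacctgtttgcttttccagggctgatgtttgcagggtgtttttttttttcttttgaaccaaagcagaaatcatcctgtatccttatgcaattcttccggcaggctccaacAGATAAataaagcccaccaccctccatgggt
APOA4: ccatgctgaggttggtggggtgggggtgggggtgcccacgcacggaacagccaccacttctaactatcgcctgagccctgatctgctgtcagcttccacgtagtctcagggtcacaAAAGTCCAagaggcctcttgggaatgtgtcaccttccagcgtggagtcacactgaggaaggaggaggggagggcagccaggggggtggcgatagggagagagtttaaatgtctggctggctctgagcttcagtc
FGB: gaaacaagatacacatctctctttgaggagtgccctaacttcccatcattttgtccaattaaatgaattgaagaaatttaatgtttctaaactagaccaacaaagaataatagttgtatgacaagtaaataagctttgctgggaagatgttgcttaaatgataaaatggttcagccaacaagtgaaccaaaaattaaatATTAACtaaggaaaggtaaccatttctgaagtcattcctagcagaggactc

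The promoter table held 27 of the 35 genes, with 36 promoter entries between them, since a gene can have several. GTTAAT was present in 8 of these 36 entries, before AFP, ALB, APOH, FGA, FGB, LIPC and SERPINA1, and in 6.23% of all 35116 entries of the table. AAAGTCCA was present in 2 of the 36, before AHSG and APOA4, and in 0.98% of all. AGATAA was in 7 of the 36 and 9.17% of all, TATAAA in 8 and 10.7%, and TGTTTAC in 1, before APOA2, and 2.98%. The letters were chosen after the promoters had been read, and a match is a description of the sequence only.

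The genes include several neighbours in the genome (GENCODE 29, GRCh38). APOA4, APOC3 and APOA1 lie within gaps of 6399 and 2678 bases on chromosome 11, AHSG and FETUB are 14650 bases apart on chromosome 3, and ALB and AFP are 9725 bases apart on chromosome 4. FGB, FGA and FGG lie within 12039 and 13367 bases of each other, also on chromosome 4, and APOE and APOC1 are 4853 bases apart on chromosome 19. The strand setting of the authors' counting was not given in the sources used here. Reads of APOA4 could therefore not be separated from an antisense transcript that covers 43.1% of its exon length, nor those of VIL1 from USP37 on the opposite strand, which covers 44.0%. APOC1 shares 43.2% of its exon length with the transcript AC011481.3 on its own strand.

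The first comparison, AM against VM, asks how the atrial and ventricular cultures differ. In VM the 35 genes together took 0.253% to 3.95% of a library's counts, and in AM 0.0618% to 0.355%. Each VM library held a larger share than the AM library of the same target and number, by 3.29 to 18.2 times (median 7.87, 12 pairs). The plot of summed shares by library shows this gap, and also that within each target and condition the library numbered 3 stands above those numbered 1 and 2. All shares in AM libraries numbered 1 and 2 lay below the lowest VM share, while 1 AM library numbered 3, labelled ZNF711 (0.355%), passed it.

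**Figure D1:**
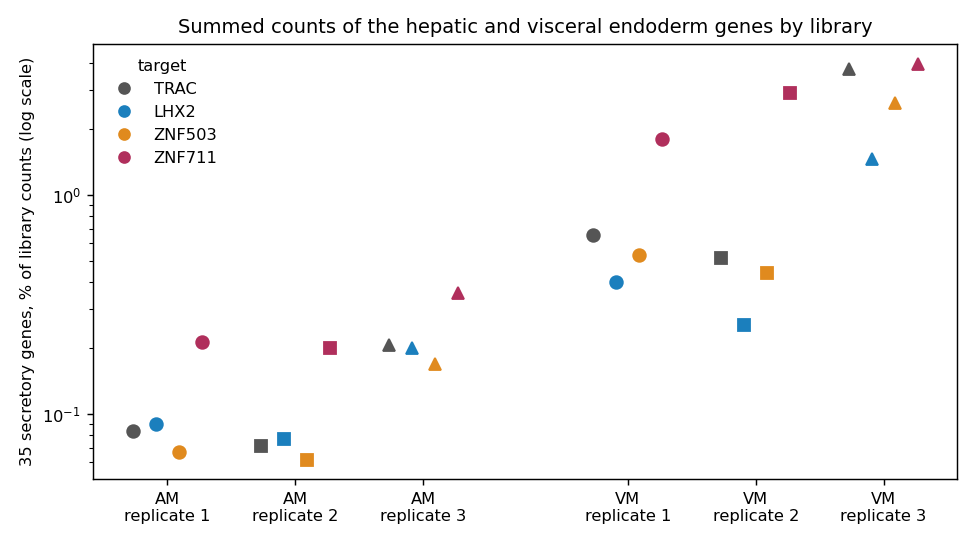
Share of each library's counts taken by the 35 hepatic and visceral endoderm secretory genes (log axis), by condition and replicate number; each point is 1 library and colours give the target. VM libraries reach 3.95% and AM libraries 0.355%, and within each condition the ZNF711-labelled library is the highest at every number.

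Of the 32 tested genes, 29 were lower in AM than in VM and none was higher in the mean over the 4 targets (edgeR quasi-likelihood test, adjusted p below 0.05). Over all genes tested, 17.6% were lower and 16.8% higher by the same rule, with a median log2 fold change of -0.01, against a median of -3.78 for the 32. For 13 of the 32, all 12 AM libraries lay below all 12 VM libraries, which held for 1.56% of all genes, and none lay wholly above, against 2.69% of all genes. By role, 9 of 9 apolipoproteins, 8 of 9 plasma carriers, 7 of 8 clotting factors, inhibitors and matrix proteins, and 5 of 6 absorptive and assembly genes were lower. TTR, FGB and VIL1 did not pass the test.

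**Figure D2:**
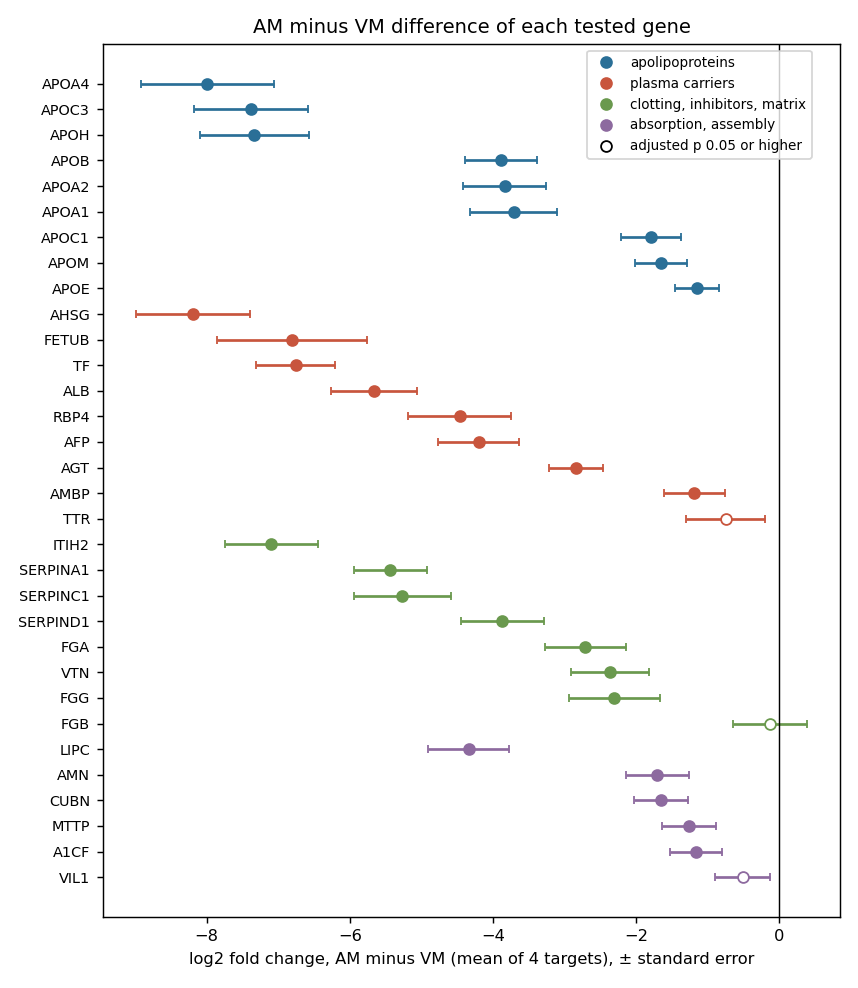
Log2 fold change of each of the 32 tested genes, AM minus VM over the mean of 4 targets, with its standard error, grouped by role; filled points passed the test and open points did not. The changes run from -8.19 for AHSG to -0.14 for FGB.

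Among the apolipoproteins, the protein parts of lipoprotein particles, the gap was widest for the neighbours APOA4 and APOC3 and for APOH, which binds phospholipids. APOA4 ran from 0.165 CPM through a median of 1.96 to 57 CPM in AM, and from 141 through 859 to 4650 CPM in VM. The conditions did not overlap, and the highest AM value was that of the ZNF711-labelled library numbered 3. The fold change was -7.99 on the log2 scale (SE 0.929, edgeR adjusted p 3.52e-06). APOC3, an inhibitor of lipoprotein lipase, ran from 0 through 0.686 to 7.81 CPM in AM and from 27.2 through 145 to 619 CPM in VM (log2 fold change -7.38, SE 0.79, edgeR adjusted p 1.36e-06). APOH had 1 count in all 12 AM libraries together and 391 in the 12 VM libraries, where it ran from 0.213 through 5.38 to 16.2 CPM. Its pooled ratio of VM over AM was 397, with an exact 95% counting interval of 70.8 to 15700, and its fitted log2 fold change of -7.33 (SE 0.76, edgeR adjusted p 5.28e-07) rests on that 1 AM count.

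APOA1, the main protein of high-density lipoprotein, was present in both conditions. It ran from 10.3 through 29.8 to 133 CPM in AM and from 65.5 through 335 to 1600 CPM in VM, so that the ranges overlapped (log2 fold change -3.71, SE 0.606, edgeR adjusted p 0.000133). The overlap came from the libraries numbered 3: without them all 8 AM values lay below all 8 VM values. APOB, the backbone of very-low-density and low-density lipoprotein, had a median of 120 CPM in AM (44.3 to 423) and 1653 CPM in VM (368 to 5910), and fell by 3.89 on the log2 scale (SE 0.501, edgeR adjusted p 1.09e-05). Of the remaining called apolipoproteins, APOA2 had a log2 fold change of -3.84, APOC1 of -1.80, APOM of -1.65 and APOE of -1.16. APOE, which many cell types make, was the apolipoprotein with the highest level per kilobase of exon in AM (median 100 CPM per kb, against 176 in VM).

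Among the plasma carriers, AHSG (fetuin-A, an inhibitor of mineral deposition) had the widest gap of all 32 genes. It was at 0 in 3 AM libraries and ran to a median of 1.69 and a highest value of 26.8 CPM there, and from 174 (lowest) through 724 to 2620 CPM in VM. The conditions did not overlap (log2 fold change -8.19, SE 0.793, edgeR adjusted p 4.12e-07). Its neighbour FETUB, a paralog, had 11 counts in 3 of 12 AM libraries, and in VM ran from 0.564 through 7.67 to 35.3 CPM (log2 fold change -6.80, SE 1.05, edgeR adjusted p 0.000151). Transferrin (TF), the iron carrier, ran from 0.732 through 2.45 to 12.5 CPM in AM and from 95.9 through 305 to 985 CPM in VM, without overlap (log2 fold change -6.76, SE 0.552, edgeR adjusted p 4.74e-08).

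AFP, the fetal counterpart of albumin, was the gene with the most counts. It ran from 76.7 through 239 to 899 CPM in AM and from 906 through 3630 to 15300 CPM in VM, so the highest AM library stayed just under the lowest VM library (log2 fold change -4.20, SE 0.561, edgeR adjusted p 1.59e-05). ALB, albumin itself, was far below AFP: at 0 to 3.48 CPM in AM (median 1.58) and 8.5 to 199 CPM in VM (median 49.3), with no overlap (log2 fold change -5.67, SE 0.602, edgeR adjusted p 1.12e-06). TTR, the thyroxine and retinol carrier, did not pass. Its AM values ran from 22.3 through 138 to 450 CPM and its VM values from 41.4 through 152 to 741 CPM, and it had a log2 fold change of -0.75 (SE 0.553, edgeR adjusted p 0.331). Of the others, RBP4, the retinol carrier that travels with TTR, had a log2 fold change of -4.47, AGT (angiotensinogen) of -2.84 and AMBP (the precursor of alpha-1-microglobulin) of -1.19. The AMBP call was lost with the replicate number as a block (log2 fold change -0.89, edgeR adjusted p 0.0595) and without the libraries numbered 3 (-0.03, edgeR adjusted p 0.918).

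Among the clotting and matrix proteins, ITIH2, a heavy chain of the hyaluronan-binding inter-alpha inhibitors, had 17 counts in 4 of 12 AM libraries. In VM it ran from 6.74 through 23.7 to 60.6 CPM (log2 fold change -7.10, SE 0.644, edgeR adjusted p 2.01e-07). SERPINA1 (alpha-1-antitrypsin) ran from 21.4 through 34.6 to 102 CPM in AM and from 305 through 1330 to 4400 CPM in VM, without overlap (log2 fold change -5.43, SE 0.514, edgeR adjusted p 2.9e-07). SERPINC1 (antithrombin) had 20 counts in 6 of 12 AM libraries and ran from 2.67 through 7.73 to 36.8 CPM in VM (log2 fold change -5.27, SE 0.676, edgeR adjusted p 4.44e-06). SERPIND1 (heparin cofactor II) had a log2 fold change of -3.87 and VTN (vitronectin) of -2.37.

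The 3 fibrinogen chains, which assemble into a single hexameric protein from neighbouring genes, did not share a ratio between conditions. FGA had a log2 fold change of -2.71 and FGG of -2.31, and both passed the test. FGB ran from 73.2 through 230 to 436 CPM in AM and from 24.9 through 136 to 823 CPM in VM, with a log2 fold change of -0.14 (SE 0.519, edgeR adjusted p 0.875). The FGB value turned positive with the replicate block (0.26, edgeR adjusted p 0.557). Without the libraries numbered 3 FGB was higher in AM and passed the test (0.83, SE 0.157, edgeR adjusted p 0.000854), while FGA (-2.001) and FGG (-2.06) stayed lower in AM.

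The absorptive and assembly genes had the smallest median gap of the 4 role groups (-1.46 on the log2 scale), although LIPC lay well beyond it. LIPC, hepatic lipase, was at 0 to 1.82 CPM in AM and 2.34 to 29.9 CPM in VM (log2 fold change -4.34, SE 0.562, edgeR adjusted p 3.92e-06). AMN (amnionless) had a median of 5.53 CPM in AM (2.56 to 15.1) and 15.9 CPM in VM (1.91 to 59.8), with a log2 fold change of -1.71 (SE 0.437, edgeR adjusted p 0.00512). Its partner CUBN (cubilin) had a median of 14.9 CPM in AM (4.84 to 40.6) and 43.6 CPM in VM (13.2 to 144), with a log2 fold change of -1.66 (SE 0.376, edgeR adjusted p 0.00221). MTTP, which loads lipid onto APOB, had a log2 fold change of -1.26 and A1CF, a cofactor of APOB mRNA editing, of -1.17. The MTTP call was lost without the libraries numbered 3 (-0.37, edgeR adjusted p 0.0947). VIL1, the microvillus protein villin, had a log2 fold change of -0.51 (edgeR adjusted p 0.343), which without those libraries was 0.39 (edgeR adjusted p 0.198).

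Within single targets the gap was seen at lower power. In the TRAC-labelled controls 19 of 32 genes were lower in AM and none higher, against 5.12% of all genes lower and 6.18% higher. In those labelled LHX2 9 of 32 were lower and none higher (all genes: 3.88% and 4.68%), in those labelled ZNF503 16 of 32 and none (4.1% and 4.77%, 8.86% together), and in those labelled ZNF711 17 of 32 and none (6.42% and 6.81%). With the replicate number as a block these counts were 26 (9.2% of all genes), 18 (7.75%), 24 (7.06%) and 28 (12%), and with a block within each condition 28 (11.4%), 18 (9.78%), 25 (9.28%) and 29 (14.3%). Without single libraries they fell to 7 in TRAC (AM TRAC 2 left out), 3 in LHX2 (AM LHX2 1 or 2), 8 in ZNF503 (AM ZNF503 1 or VM ZNF503 3) and 9 in ZNF711 (AM ZNF711 1 or 2). The block within each condition also called FGB higher in AM in the libraries labelled LHX2. In the TRAC-labelled libraries the largest called changes on the log2 scale were AHSG at -7.78, APOA4 at -7.96, APOC3 at -6.83, TF at -6.59 and ITIH2 at -6.39, with FETUB at 0 in the 3 AM libraries and at least 96.9-fold higher in VM. The ITIH2 value rests on 6 AM counts, all in the library numbered 1. AHSG, APOA4, APOC3 and TF were also among the 6 largest in the other targets: AHSG fell by 9.07, 8.56 and 7.35 on the log2 scale in LHX2, ZNF503 and ZNF711. In LHX2 the AHSG value rests on 12 AM counts, all in the library numbered 3. APOH was at 0 in the AM libraries of LHX2, ZNF503 and ZNF711 and at least 8.96-fold, 31.4-fold and 58.1-fold higher in VM. ITIH2 had a log2 fold change of -5.32 in LHX2, resting on 4 AM counts in the library numbered 3. It was at 0 in the AM libraries labelled ZNF711, where VM was at least 233-fold higher. SERPINC1 completed the list in ZNF503, at -6.71, a fitted value that rests on 1 count in the 3 AM libraries. These lower bounds set 3 counts over the AM group in place of 0 and cover counting error only.

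With all 3 replicates, none of the 32 genes passed the test of whether its AM against VM gap differed between a target and TRAC (edgeR, adjusted p below 0.05; 0%, 0% and 0.00564% of all genes passed for LHX2, ZNF503 and ZNF711). None of the 32 had an unadjusted p below 0.05 in any of these 3 tests, and DESeq2 called none. The lowest p-values were those of FGB (2.21 on the log2 scale, SE 1.49) and CUBN (1.46, SE 1.06) for LHX2, FETUB (5.09, SE 3.6) and APOC1 (1.10, SE 1.14) for ZNF503, and ITIH2 (-4.57, SE 3.34) and APOH (-2.82, SE 2.82) for ZNF711. In all 12 AM libraries together ITIH2 had 17 counts, FETUB 11 and APOH 1, so their values rest on few AM counts. FETUB had 0 counts in the AM libraries labelled TRAC and 8 in those labelled ZNF503, all 8 at number 3. Without the libraries numbered 3, a choice made on earlier results of these data, 3 genes passed for ZNF711, against 0.892% of all genes lower. Each had a lower AM minus VM value in ZNF711 than in TRAC: VTN (-2.01, SE 0.325, edgeR adjusted p 0.00232), FGA (-1.69, SE 0.371, edgeR adjusted p 0.0243) and AMBP (-1.92, SE 0.43, edgeR adjusted p 0.0258). With all libraries the standard errors are wide, so these tests do not show that the gaps were equal.

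**Figure D3:**
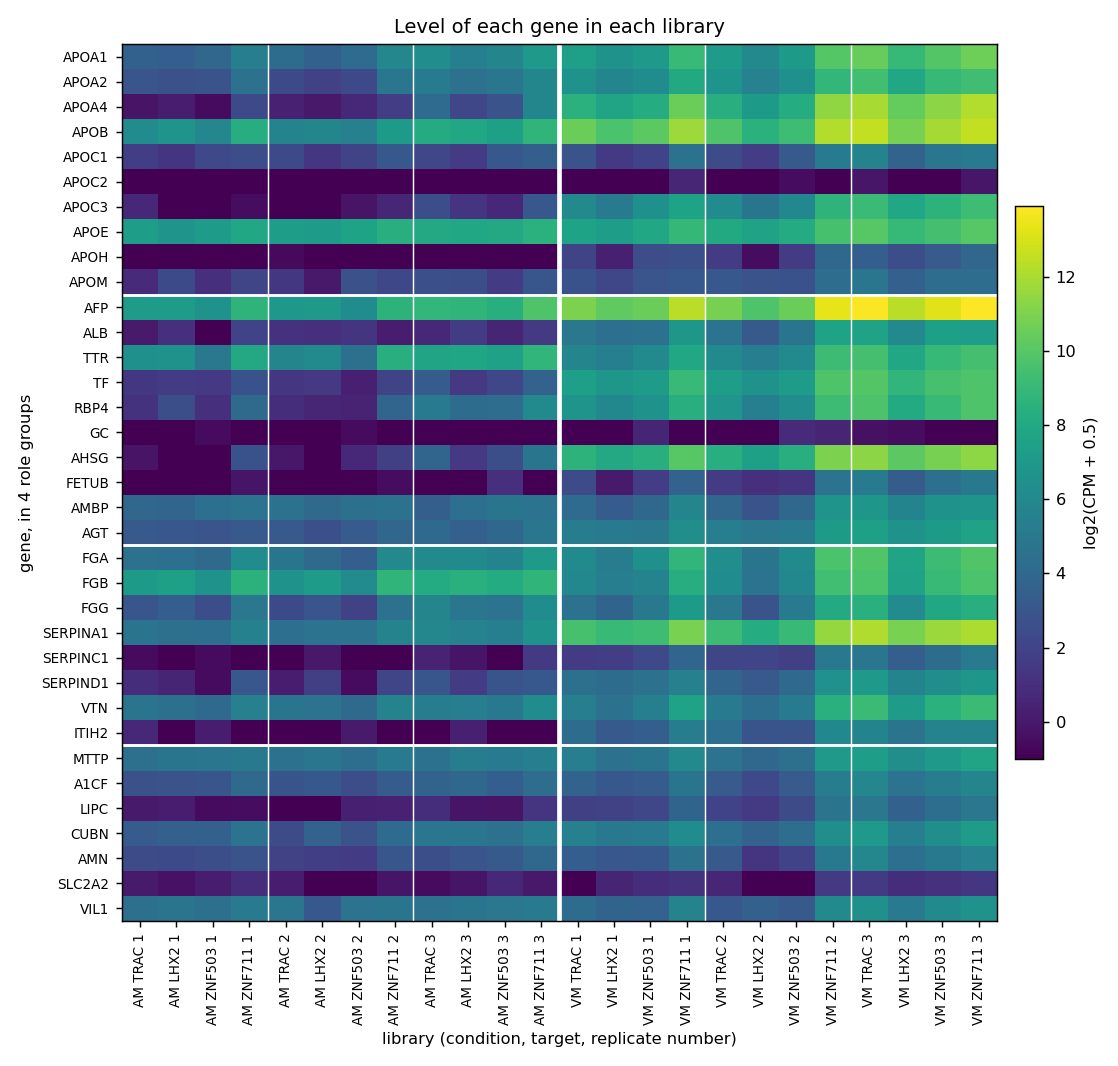
Level of each of the 35 genes in each of the 24 libraries, as log2 of CPM plus 0.5, with genes in 4 role groups and libraries ordered by condition, replicate number and target. The right side (VM) is brighter for most rows, with the brightest columns at VM number 3 and VM ZNF711 numbers 1 and 2, while APOE, TTR, FGB and VIL1 are visible on both sides.

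Because the summed level differed between conditions, the make-up of the set was also compared. Counts of each gene were set against counts of AFP in the same library, which removes a common change in amount. For 16 of 31 genes the ratios of the 12 AM libraries and of the 12 VM libraries did not overlap. AFP itself did not overlap between conditions, so a gene at an equal level in both stands higher relative to AFP in AM. The share over all genes was not computed, so the count is a description only. In VM, APOA4, APOC3, TF and AHSG were higher relative to AFP: APOA4 had a median of 22.8 counts per 100 AFP counts (15.5 to 30.3) against 0.809 in AM (0.169 to 6.34), and AHSG 19.4 (17.1 to 22) against 0.64 (0 to 3.01). TF had a median of 8.7 (5.78 to 10.6) against 1.48 (0.519 to 2.36). In VM these ratios varied less than AFP itself, which ran over the 12 libraries from 906 to 15300 CPM, but they were not constant. APOA4 stood at 15.55 to 19.96 in the 6 VM libraries numbered 1 and 2 not labelled ZNF711, and at 25.68 to 30.3 in the others. That split was made after the values were seen. TF had its lowest VM values at number 3 (5.784 to 8.411).

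The 12 genes that were higher relative to AFP in AM were APOE, TTR, AMBP, the 3 fibrinogen chains, VTN and the 5 absorptive genes MTTP, A1CF, CUBN, AMN and VIL1. FGB had a median of 93.1 counts per 100 AFP counts in AM (48.5 to 120) against 4.14 in VM (2.74 to 6.42), so that the AM libraries carried nearly as many FGB as AFP counts. TTR had a median of 52.3 (29.1 to 83.5) against 4.54 (2.71 to 5.65), and FGA of 15.2 (13.1 to 21.7) against 5.24 (3.02 to 8.32). APOA1 (median 14.8 in AM, 9.38 in VM) and APOB (53.7 and 42.7) overlapped between conditions. Without the libraries numbered 3, 18 of 31 genes did not overlap: the same 16, with APOC1 added on the AM side and RBP4 on the VM side. These ratios were computed with no test, and AFP, as the common denominator, ties them to each other.

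**Figure D4:**
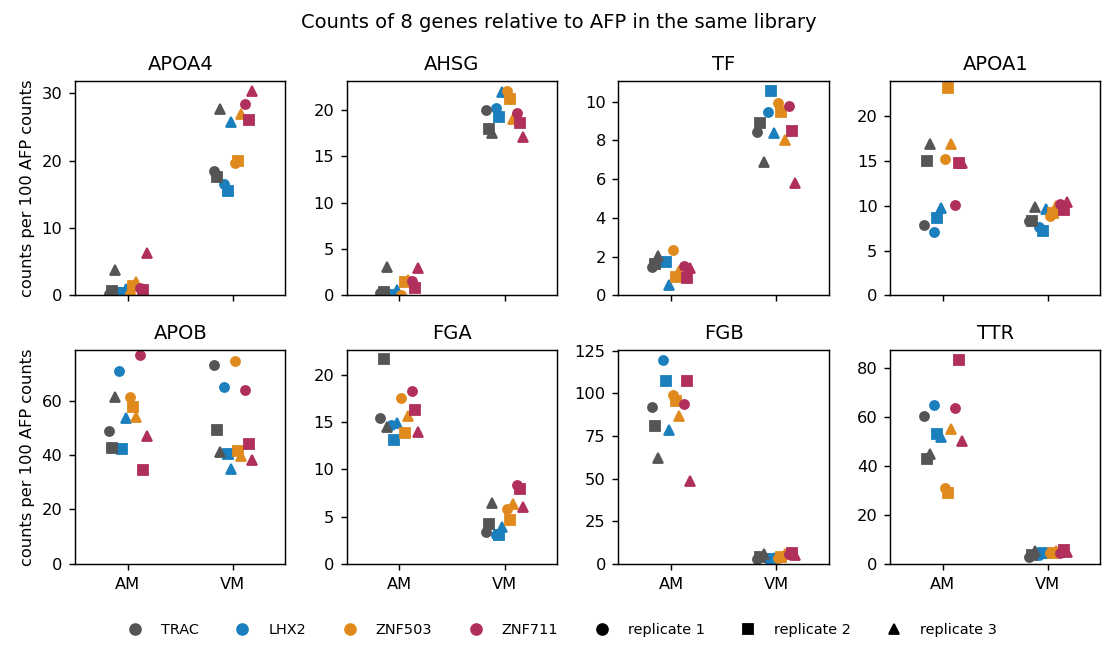
Counts of 8 of the genes per 100 counts of AFP in the same library, for AM and VM; colours give the target, shapes the replicate number. APOA4, AHSG and TF lie higher in all VM libraries, FGA, FGB and TTR lie higher in all AM libraries, and APOA1 and APOB overlap.

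Levels per kilobase of exon ranked differently in the conditions. The length used was that of all annotated exons merged (26199 bases for TF), which can exceed the transcript made. Ranks between genes are therefore approximate. In VM the highest medians were those of AFP (1110 CPM per kb), APOA4 (583), AHSG (308), SERPINA1 (271) and APOA1 (235). In AM they were APOE (100 CPM per kb), FGB (85.1), AFP (73.4), TTR (57.7) and APOA1 (20.9). The ranges of the top 4 in AM overlapped widely (48.7 to 169 for APOE, 27 to 161 for FGB, 23.5 to 276 for AFP and 9.33 to 188 for TTR), so their order is not fixed by these libraries. APOC2 was at 0 in all 12 AM libraries, reached 0.989 CPM in VM and shares 55.4% of its exon length with the readthrough gene APOC4-APOC2. GC, the vitamin D carrier, reached 1.23 CPM, and SLC2A2, the hepatic glucose transporter, 2.38 CPM, both in VM.

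Further genes of hepatic and visceral endoderm, were read beside these. Of 17 tested plasma protein genes outside the 35, 14 were lower in AM and none higher, with the largest changes in SERPINA6 (-8.16 on the log2 scale, SE 0.775), ORM1 (-6.85, SE 1.2) and SERPINA10 (-5.75, SE 0.663). Of 18 genes of lipoprotein uptake and handling, 11 were lower and 3 higher. Large falls were those of MOGAT2 (-6.39, SE 0.783), a triglyceride synthesis enzyme, and of the fatty acid binding protein FABP1 (-4.15, SE 0.517). Of 11 hepatocyte enzymes, 9 were lower and 1 higher, with ARG1 (-7.00, SE 0.761) and PCK1 (-5.49, SE 0.94) among the largest falls. All calls in this and the next paragraph are edgeR's, adjusted over all genes tested.

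Transcription factors were called in both directions. Of 16 transcription factors of endoderm and liver, 7 were higher in AM, among them HNF4G, FOXA1, GATA4, GATA6, SOX17 and ONECUT1, and 5 lower, among them FOXA3, CEBPA, HHEX and CREB3L3. FOXA1 was 2.26 higher on the log2 scale (SE 0.45, edgeR adjusted p 0.000689) and ONECUT1 2.03 higher (SE 0.348, edgeR adjusted p 0.000107). CREB3L3, a liver and gut factor that acts on apolipoprotein genes, fell by 3.49 (SE 0.571, edgeR adjusted p 7.97e-05). HNF4A (-0.59, SE 0.356) and FOXA2 (-0.56, SE 0.324) did not pass. Of 10 endoderm epithelium genes 1 was higher (SPINT2) and 1 lower (KRT19), with a median of -0.06, and their sum ran from 1312 to 3065 CPM in AM and from 1330 to 3740 CPM in VM. Of 7 gut, pancreas and lung endoderm genes 4 were higher in AM and none lower: PDX1 (2.52, SE 0.371), MNX1 (1.63, SE 0.606), SHH (1.63, SE 0.4) and VILL (0.98, SE 0.192). Kidney tubule genes, which matter because that epithelium also carries cubilin and amnionless, summed to 0.362 to 2.84 CPM in AM and 0.825 to 9.19 CPM in VM over 8 genes. Only SLC22A6 of the 8 was tested, and it was called lower in AM (edgeR adjusted p 0.00163), at 0 in all 12 AM libraries and 0 to 3.58 CPM in VM, where 8 libraries had a count. The other cell types also differed between conditions: of 12 cardiomyocyte genes 7 were lower and 1 higher in AM, of 8 endothelial genes 6 were higher, of 8 fibroblast genes 3 were higher, and of 5 epicardial genes 3 were higher and 1 lower. Their part in the levels of the secretory genes was not tested.

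The second comparison followed the replicate number within VM. The libraries numbered 3 were set against the mean of those numbered 1 and 2, with the target kept in the model. The labels do not say what a number stands for. Earlier results of these data had placed the VM libraries numbered 3 apart, so the test describes them and is not an independent finding. Its p-values rest on the spread between targets within a number, and not on repeats of a number. All 32 tested genes were higher in the VM libraries numbered 3 (edgeR quasi-likelihood test, adjusted p below 0.05), with a median log2 fold change of 2.04, where 17.7% of all genes were higher and the median over all genes was 0.00. With the VM library labelled LHX2 numbered 3 left out the count was 30.

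VTN had the largest change, at 2.80 on the log2 scale (SE 0.318, edgeR adjusted p 2.13e-05). Its values were 570, 153, 369 and 577 CPM in the VM libraries numbered 3 (TRAC, LHX2, ZNF503 and ZNF711), and 20.4 through a median of 38.8 to 352 CPM in the 8 others. APOA4 stood at 3960, 1350, 2560 and 4650 CPM against 141 through 312 to 2740 CPM (log2 fold change 2.77, SE 0.293, edgeR adjusted p 1.19e-05). FGB stood at 823, 195, 525 and 816 CPM against 24.9 through 61.6 to 678 CPM (log2 fold change 2.63, SE 0.391, edgeR adjusted p 0.000211), and FGA had a log2 fold change of 2.56 (SE 0.373, edgeR adjusted p 0.000181). In each case the highest of the 8 others was a ZNF711-labelled library, and the lowest of the 4 was the LHX2-labelled one. For none of the 32 did all 4 libraries numbered 3 lie above all 8 others, against 2.77% of all genes. With the ZNF711-labelled libraries 1 and 2 set aside, a split chosen after the values were seen, 31 of 32 did so, against 12.4% of all genes.

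AFP rose by 2.26 on the log2 scale (SE 0.255, edgeR adjusted p 2.05e-05), from 906 through 1680 to 10500 CPM at numbers 1 and 2 to 14340, 5242, 9500 and 15350 CPM at number 3. ALB rose by 2.01 (SE 0.409, edgeR adjusted p 0.00234), from 8.5 through 26.5 to 199 CPM to values of 68.6 to 189 CPM. TTR, which did not pass between conditions, rose by 2.52 (SE 0.395, edgeR adjusted p 0.000326), and its values at number 3 were 741, 234, 497 and 730 CPM. FETUB (2.56, SE 0.494), APOA1 (2.47, SE 0.27), APOC3 (2.39, SE 0.29) and RBP4 (2.28, SE 0.302) rose by like amounts. SERPINA1 rose by 2.14 (SE 0.241) and APOB by 1.74 (SE 0.282). The absorptive group was led by AMN (2.03, SE 0.267), LIPC (2.02, SE 0.326) and MTTP (1.97, SE 0.227). The smallest changes were those of APOM (1.31), CUBN (1.37) and ITIH2 (1.45).

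Other genes moved with the same number. In VM all 10 endoderm epithelium genes were higher at number 3 and their sum rose to 2880 to 3740 CPM from 1330 to 3200 CPM. Of 16 endoderm and liver transcription factors 11 were higher, among them FOXA1 (2.62, SE 0.302), CREB3L3 (2.16, SE 0.345) and CEBPA (1.86, SE 0.146), and GATA6 and PROX1 were lower. Of 12 cardiomyocyte genes 7 were lower and none higher, and their sum was 11800 to 21100 CPM at number 3 and 16000 to 42400 CPM at numbers 1 and 2. TNNT2 fell by 1.14 (SE 0.0862), PLN by 1.13 (SE 0.269) and RYR2 by 1.11 (SE 0.174). The part of the cell mixture in the rise of the secretory genes was not tested.

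In AM the step at number 3 was called for fewer genes. There 13 of the 32 genes were higher and none lower, against 2.55% of all genes higher and 1.35% lower (3.9% together). The largest were APOA4 (4.01 on the log2 scale, SE 0.666, edgeR adjusted p 0.00565), AHSG (3.28, SE 0.709, edgeR adjusted p 0.0236), RBP4 (3.02, SE 0.489, edgeR adjusted p 0.00479), FGG (2.21, SE 0.469), APOA2 (1.99, SE 0.381) and APOA1 (1.88, SE 0.327). APOA4 stood at 17.9, 3.99, 6.5 and 57 CPM in the AM libraries numbered 3 (TRAC, LHX2, ZNF503 and ZNF711), and at 0.165 to 4.3 CPM in the 8 others. The count fell to 4 without the ZNF503-labelled or the TRAC-labelled AM library numbered 3, and to 5 against number 2 alone. Of the 10 endoderm epithelium genes 6 were higher at number 3 in AM and none lower, and their sum was 2263 to 3065 CPM there and 1312 to 2564 CPM at numbers 1 and 2. Of 12 cardiomyocyte genes 3 were higher and 1 lower. Their part in the step was not tested.

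The step itself differed between VM and AM for 7 of 32 genes, all with the larger step in VM, against 5.95% of all genes (10.4% in either direction). They were AMBP (difference 2.12 on the log2 scale, SE 0.516, edgeR adjusted p 0.0203), VTN (2.08, SE 0.495, edgeR adjusted p 0.0181), VIL1 (1.66, SE 0.488, edgeR adjusted p 0.0492), MTTP (1.64, SE 0.349, edgeR adjusted p 0.0095), APOC1 (1.46, SE 0.467, edgeR adjusted p 0.0471), A1CF (0.99, SE 0.298, edgeR adjusted p 0.0268) and APOE, the smallest of the 7. AMBP stood at 11.1 to 27.3 CPM in all 12 AM libraries, and in VM at 6.8 to 104 CPM at numbers 1 and 2 and 52 to 119 CPM at number 3. The count of 7 was not stable: it was 1 without the AM library numbered 3 labelled TRAC or the VM library numbered 3 labelled ZNF503, and 14 without the VM library numbered 3 labelled ZNF711.

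The third set of comparisons sets the libraries labelled LHX2, ZNF503 and ZNF711 against those labelled TRAC. With all 3 replicates and no block, none of the 32 genes passed in any of the 6 comparisons (edgeR, adjusted p below 0.05), where 0.0169% of all genes passed for ZNF711 in VM and 0% in the other 5. At an unadjusted p below 0.05 stood 1 gene for LHX2 in VM and none in the other 5, and DESeq2 called none. The 6 comparisons share the TRAC libraries of each condition. Since all 32 genes differed by number in VM, the libraries of a target were also compared with the TRAC library of the same number, and the fit was repeated with the number as a block within each condition and without the libraries numbered 3.

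In VM the ZNF711-labelled libraries numbered 1 and 2 stood far above their TRAC counterparts and the one numbered 3 did not. The 35 genes took 1.79%, 2.92% and 3.95% of the counts of the 3 ZNF711-labelled libraries, and 0.657%, 0.516% and 3.74% of those labelled TRAC, so the ratios were 2.72, 5.66 and 1.06. Gene by gene the median ratio over the 32 genes was 2.67, 6.27 and 0.996. At numbers 1 and 2 the ZNF711-labelled library was the highest of the 4 VM libraries for all 32 genes, and at number 3 for 15 of 32. The share over all genes was not computed for these counts, so they are a description only. For 31 of 32 genes both ZNF711-labelled libraries numbered 1 and 2 lay above the 6 other VM libraries of those numbers. This held for 13.5% of all genes, and the split was chosen after the values were seen. AFP stood at 5318, 10547 and 15350 CPM against 2019, 1831 and 14340 CPM in TRAC. FGA stood at 443, 830 and 918 CPM against 68.5, 77.1 and 920 CPM, and APOA4 at 1510, 2740 and 4650 CPM against 372, 320 and 3960 CPM.

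Over the 3 numbers the median log2 fold change of ZNF711 against TRAC in VM was 0.78 for the 32 genes, all positive, against -0.01 over all genes. The lowest p-values were those of APOH (1.12, SE 0.776, edgeR adjusted p 0.688) and SERPINC1 (1.19, SE 0.876, edgeR adjusted p 0.706). With the replicate number as a block 3 genes were higher, against 1.25% of all genes: APOA4 (2.004, edgeR adjusted p 0.029), SERPINC1 (1.85, edgeR adjusted p 0.034) and APOA1 (1.56, edgeR adjusted p 0.0465). With the block within each condition 19 of 32 were higher, against 4.77% of all genes, with AFP at 1.45 (edgeR adjusted p 0.0265). Without the libraries numbered 3, 25 of 32 were higher, against 3.22% of all genes, with a median of 2.11. In that fit FGA was higher by 3.14 on the log2 scale (SE 0.27, edgeR adjusted p 5.02e-06), VTN by 2.83 (SE 0.235, edgeR adjusted p 3.89e-06), APOA4 by 2.63 (SE 0.265, edgeR adjusted p 2.02e-05) and AFP by 2.06 (SE 0.249, edgeR adjusted p 6.64e-05). That fit compares 2 libraries with 2 and takes its spread from all 8 groups. Leaving out number 3 was chosen because those libraries stood apart in earlier results of these data. It drops the pair without the difference (median gene ratio 0.996), so these p-values do not stand for all 3 numbers.

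Cardiomyocyte genes were lower by sum in the same libraries, although none of the 12 passed the test against TRAC with all 3 replicates (median log2 fold change -0.92). Their sum was 17740 and 16030 CPM in the ZNF711-labelled VM libraries numbered 1 and 2, and 37270 to 42370 CPM in the 6 other VM libraries of those numbers. At number 3 it was 11840 CPM for ZNF711 and 15690 CPM for TRAC. Endoderm epithelium genes summed to 2583 and 3199 CPM in those ZNF711-labelled libraries and 1332 to 1885 CPM in the 6 others. The part of the cell mixture in the difference was not tested.

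In AM the ZNF711-labelled library was the highest of the 4 by summed share at each number, at 0.212%, 0.2% and 0.355% against 0.0838%, 0.0713% and 0.206% in TRAC, which gives ratios of 2.54, 2.8 and 1.73. For 24 of the 32 genes it was above TRAC at all 3 numbers, against 15.9% of all genes, and for none below at all 3, against 16.3%. AFP stood at 406, 397 and 899 CPM against 149, 125 and 472 CPM, FGB at 382, 424 and 436 CPM against 138, 101 and 292 CPM, and TTR at 258, 331 and 450 CPM against 90.2, 53.7 and 212 CPM. No gene passed with all 3 replicates, where TTR (1.55 on the log2 scale, SE 1.12) and CUBN (0.9951, SE 0.764) had the lowest p-values, nor with either block. Without the libraries numbered 3, a choice made on earlier results of these data, 8 were higher against 0.133% of all genes. They were APOA1, APOA2, AFP, TTR, RBP4, FGA, FGB and FGG, from 1.46 for FGA to 3.28 for RBP4. Cardiomyocyte genes summed to 27520, 30220 and 21010 CPM in the ZNF711-labelled AM libraries and to 19000, 19970 and 22380 CPM in those labelled TRAC, and none of the 12 passed the test. Endoderm epithelium genes summed to 2194, 2564 and 3065 CPM in the ZNF711-labelled AM libraries and to 1723, 1579 and 2461 CPM in TRAC, with all 10 fitted values positive (median log2 fold change 0.42) and none called. The part of these cells in the secretory genes' values was not tested.

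**Figure D5:**
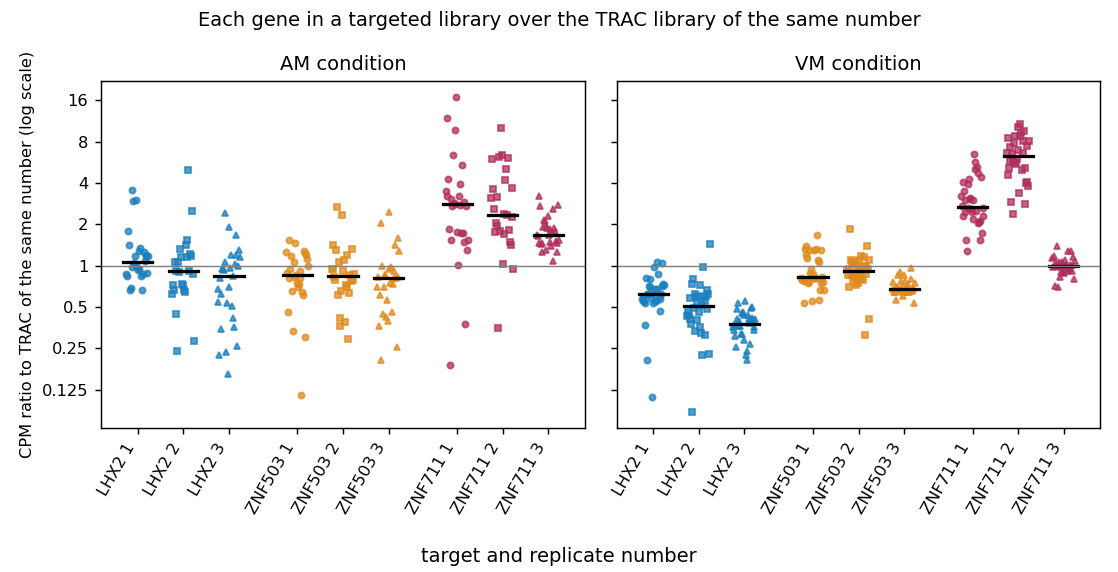
Ratio of each tested gene's CPM to the TRAC library of the same condition and number (log axis), for genes with counts in both libraries; each point is a gene and the bar is the median. ZNF711 medians in VM are 2.67, 6.27 and 0.996, LHX2 medians in VM are 0.621, 0.507 and 0.377, and the AM medians of LHX2 and ZNF503 lie between 0.816 and 1.06.

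The libraries labelled LHX2 were the lowest in VM. Their summed shares were 0.401%, 0.253% and 1.46%, against 0.657%, 0.516% and 3.74% in TRAC (ratios 0.61, 0.49 and 0.391). The LHX2-labelled library was the lowest of the 4 VM libraries for 28, 28 and 32 of the 32 genes at numbers 1, 2 and 3. The share over all genes was not computed for this order, so it is a description only. For 29 of the 32 genes the LHX2-labelled library was below TRAC at all 3 numbers, against 15.4% of all genes. AFP stood at 1250, 906 and 5240 CPM, FGA at 37.8, 27.4 and 206 CPM and APOC1 at 2.44, 2.76 and 13 CPM. The median log2 fold change was -1.28, with all 32 negative, but the test did not call any: APOC1 (-1.79, SE 0.801, unadjusted p from edgeR 0.0375) and FGA (-1.98, SE 1.09) had the lowest p-values, and neither block nor the fit without the libraries numbered 3 called a gene. Without the VM TRAC library numbered 3 the fitted values of APOC1 and FGA turned to 0.09 and 0.29. With no filter on low counts 27 of 35 passed, but no share over all genes is given beside that count, so it is no result about these genes. In AM the LHX2 ratios of the sum were 1.07, 1.08 and 0.971, with AHSG (-2.33, SE 2.17) and APOC1 (-0.82, SE 0.97) lowest in p; the AHSG value was 1.14 without the AM TRAC library numbered 3.

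The libraries labelled ZNF503 lay below TRAC by summed share at every number. In VM their summed ratios were 0.805, 0.854 and 0.702, and 17 of 32 genes were below TRAC at all 3 numbers, against 14.1% of all genes. None of the 32 fitted VM values was positive (median log2 fold change -0.44), and none passed the test. In AM the ratios were 0.799, 0.867 and 0.82, and 10 genes were below at all 3 numbers, against 13.9% of all genes. The lowest p-values belonged to AMN (-0.87 on the log2 scale, SE 0.813) and APOC1 (-0.62, SE 0.76) in VM and to FETUB (4.33, SE 3.42) and SERPINC1 (-2.15, SE 2.35), which both rest on few counts, in AM. Without the VM TRAC library numbered 3 the VM values turned to 0.61 for AMN and 1.27 for APOC1, and without the AM ZNF503 library numbered 3 that of FETUB was 0.00. ZNF503 RNA was itself higher in these libraries than in TRAC, as given above. By summed share the order in VM was LHX2, ZNF503, TRAC, ZNF711 at each of the 3 numbers. In AM ZNF503 was the lowest and ZNF711 the highest at each number, and LHX2 and TRAC exchanged places. These orders describe the sums and were not tested.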

How the data were processed

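RNA of 24 libraries was measured. The table holds whole-number counts per gene and library, as deposited by the authors. STAR and GRCh38 are named per the submitters' processing notes, without versions or roles, and the counting tool and its strand setting were not given in the sources used here. The labels call the molecule polyA RNA while their protocol names RiboErase depletion, so it is unsettled whether RNA without a poly-A tail was kept.

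The 35 genes, the other gene lists and the tests were chosen with earlier results of these data known. Groups and replicate numbers came from the sample titles. Genes were kept by edgeR's filterByExpr (17724 of 62757), scaled by TMM (factors 0.905 to 1.08) and fitted in edgeR 4.0.16 (R 4.3.3, quasi-likelihood, robust) with 8 group means over all 24 libraries, 16 residual degrees of freedom and a biological coefficient of variation of 25%. P-values are two-sided and Benjamini-Hochberg adjusted over all genes tested, and a gene was called at an adjusted p below 0.05. The standard error is the log2 fold change divided by the square root of F. Alternatives were a replicate block, a block within condition (12 residual degrees of freedom, 14.3%), DESeq2 1.42.0, other scalings and filters, and leaving out libraries. Leaving out the libraries numbered 3 was chosen because they stood apart in earlier results of these data, and its use on genes whose ranges do not overlap was added after seeing the data.

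Same-numbered libraries deviated together over 11428 genes (r from 0.12 to 0.79 in 10 pairs of groups), so the numbers were taken to pair the samples. This pairing comes from the data, as the labels do not say what a number marks.

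The genes named were, between conditions, every tested gene of the set, within targets the 6 largest called, and against TRAC the 2 of lowest p, with further genes given as examples. Of the other lists the 3 largest called genes were named, except genes that are not reported here. On simulated counts, 99 of 100 genes with a log2 change of 1 and 100 of 100 with a change of 2 were recovered for AM against VM (16656 genes). For ZNF711 against TRAC in VM 38 and 96 were recovered, and for number 3 in VM 68 and 100. These rates hold for the simulated counts only and do not give the chance of finding such a change in the secretory genes. Against TRAC in VM the secretory genes of lowest p had wide standard errors, and their levels differed by replicate number, as given above. The absence of calls against TRAC therefore does not show that these genes were unchanged. Gene models were GENCODE 29. Counting intervals are exact at 95% and cover counting error only.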

Additional observations from a re-analysis of the deposited data

Results flagged for a closer look

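The difference between libraries numbered 3 and those numbered 1 and 2 was itself different in VM and AM, by edgeR's test of that interaction, for 7 of the 32 genes. The values, VM minus AM on the log2 scale, were 2.12 for AMBP, 2.08 for VTN, 1.66 for VIL1, 1.64 for MTTP, 1.46 for APOC1, 0.99 for A1CF and 0.87 for APOE. All 7 had the larger step in VM. Of 12 cardiomyocyte genes 10 had a step that was lower in VM than in AM, and the part of the cell mixture was not tested.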

How the results depend on the processing

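In AM against VM over the mean of 4 targets, 27 to 29 of the 32 genes were called when any 1 library was left out, and 28 to 31 under other scalings, filters, DESeq2 or a block. Without any filter on low counts, AM against VM gave 31 calls in TRAC, 26 in LHX2, 30 in ZNF503 and 32 in ZNF711. The same setting gave 3 for LHX2, 4 for ZNF503 and 15 for ZNF711 against TRAC in AM, 27 for LHX2 and 18 for ZNF711 in VM, and 10 for the LHX2 difference between conditions. A filter at 1 CPM in 3 libraries left 4 genes whose step at number 3 differed between VM and AM. DESeq2 called 18 genes for AM against VM in LHX2. Fits of only the groups compared gave 5 in TRAC, 7 in ZNF503 and 30 in ZNF711, and a fit of only the AM libraries gave 20 for the AM step at number 3. With the replicate block AM against VM gave 18 in LHX2 and 28 in ZNF711, and ZNF711 against TRAC in VM gave 3. With the replicate block within condition the counts were 19 in LHX2, 25 in ZNF503, 29 in ZNF711 and 19 for ZNF711 against TRAC in VM. The blocks changed no other count by over 1.5 times. Without replicate 3 of every group they were 16 in LHX2, 28 in ZNF711, 8 and 25 for ZNF711 against TRAC in AM and VM, and 3 for the ZNF711 difference between conditions. Number 3 against number 1 alone left 1 gene whose step differed between conditions. Against number 2 alone 2 genes did, and the AM step gave 5. Shares over all genes are not set beside the counts in this paragraph. The counts therefore describe shifts with the setting and no result particular to these genes. The causes of these shifts were not tested.

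When single libraries were dropped, AM against VM gave 7 to 22 calls in TRAC, 3 to 9 in LHX2, 8 to 16 in ZNF503 and 9 to 16 in ZNF711, 0 in every comparison with TRAC and every difference between conditions, 30 to 32 for the VM step, 4 to 12 for the AM step and 1 to 14 for their difference. The fitted FGB value for AM against VM changed sign to 0.26 with the replicate block, 0.29 with the block within condition and 0.83 without replicate 3 of every group. Without single libraries FGB ran from -0.34 (AM ZNF503 3) to 0.43 (VM TRAC 3), with 0.22 and 0.36 without VM LHX2 3 and VM ZNF503 3. Without replicate 3 of every group VIL1 was 0.39 for AM against VM, and for ZNF503 against TRAC AM FETUB was 0.00, AM SERPINC1 0.030, VM APOC1 0.14 and the APOC1 difference between conditions -0.041. The remaining sign changes came from dropping a library numbered 3. For LHX2 against TRAC, AHSG in AM ran from -7.61 (AM LHX2 3) to 1.14 (AM TRAC 3), and in VM APOC1 ran from -3.01 to 0.088 and FGA from -3.44 to 0.29 (VM LHX2 3 and VM TRAC 3). For ZNF503 against TRAC, FETUB in AM ran from 0.00 (AM ZNF503 3) to 4.92 (AM ZNF503 1), and without VM ZNF503 3 and VM TRAC 3 AMN in VM was -2.21 and 0.61, APOC1 in VM -1.75 and 1.27, and the APOC1 difference 2.23 and -0.79. Without the libraries numbered 3, chosen after seeing the data, 18 genes in place of 13 had all AM values below all VM values. Over all genes that share rose from 1.56% to 2.49%, since fewer libraries separate more easily. As a ratio to AFP 18 genes in place of 16 did not overlap, with no share over all genes computed. Depth limits APOH, FETUB, ITIH2 and SERPINC1 in AM, where all 12 libraries together held 1 to 20 counts of each.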
